A study of Mus musculus with 12 samples.

Results

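Kidneys of lean db/m mice of the GABP overexpression group (db/m-GABP-OE) were compared with kidneys of diabetic db/db mice given vehicle (db/db-veh). The db/m mice carry 1 working copy of the leptin receptor gene and are the lean controls of the strain, and the db/db mice have no working copy and become obese and diabetic. The series holds 4 groups of 3 kidney libraries each, and the comparison uses 6 of its 12 libraries. Single libraries are written OE 1 to OE 3 for db/m-GABP-OE and DB 1 to DB 3 for db/db-veh. The lean vehicle group (db/m-veh, 3 libraries) enters the same model and is given beside the results. The members are the nuclear genes with an FPKM (fragments per kilobase of exon, scaled to the fragments of the library) of at least 0.3 in 3 or more of the 6 libraries, and 12312 of the 21899 rows of the table met this rule. Of the 21886 nuclear rows, 9574 were therefore not tested, 5397 of them listed at 0 in all 6 libraries. Just inside the rule were 693 genes at 0.3 or more in exactly 3 libraries, and just outside it were 577 genes at that level in exactly 2. The overexpression kidneys differ from the diabetic ones in the leptin receptor genotype and in the GABP treatment at once, so these cannot be told apart. The sources used here do not state how GABP was raised, nor the age and sex of the mice. The labels state 6 mice per group and the mixing of 3 tissues, but not whether each library is a separate pool, so libraries may share animals and p-values may then be too small.

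GABP is an ETS-family transcription factor made of a DNA-binding alpha subunit (Gabpa) and a beta subunit (Gabpb1 or Gabpb2) that carries the activation domain. It is best known for binding GGAA-containing sites near the starts of nuclear genes for the respiratory chain and for mitochondrial and cytosolic ribosomes. The diabetic db/db kidney is a model of early diabetic kidney disease, and in the kidney the proximal tubule does most of the reabsorption of glucose, amino acids and phosphate and much of the steroid and drug metabolism. The series concerns GLI1, the transcription factor at the end of the Hedgehog pathway, as a gene controlled by GABP.

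Promoter stretches of 5 genes show the letters that the measurements refer to. They are the 250 bases before the annotated start of 2 MHC class II genes and of 3 respiratory chain genes that were higher in the overexpression kidneys, written 5′ to 3′ on the strand of the gene and credited to RefSeq, mouse build GRCm38.p6. Capitals mark CTGATTGG, the Y box letters bound by the factor NF-Y in class II promoters, in H2-Eb1 (chr17:34305617-34305866, plus strand) and H2-Aa (chr17:34287824-34288073, minus strand). In Atp5e (chr2:174464102-174464351), Uqcr11 (chr10:80406822-80407071) and Cox6a1 (chr5:115348959-115349208), all on the minus strand, capitals mark the ETS core CCGGAAG or its reverse complement CTTCCGG.
H2-Eb1: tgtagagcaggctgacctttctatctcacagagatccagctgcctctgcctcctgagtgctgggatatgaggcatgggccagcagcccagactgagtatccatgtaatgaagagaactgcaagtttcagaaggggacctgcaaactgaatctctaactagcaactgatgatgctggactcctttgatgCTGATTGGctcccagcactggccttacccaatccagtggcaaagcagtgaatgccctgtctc
H2-Aa: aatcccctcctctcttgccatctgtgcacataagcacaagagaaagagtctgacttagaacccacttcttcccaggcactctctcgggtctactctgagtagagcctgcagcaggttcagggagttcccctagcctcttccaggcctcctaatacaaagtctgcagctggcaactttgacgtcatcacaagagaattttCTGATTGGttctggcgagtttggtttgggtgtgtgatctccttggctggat
Atp5e: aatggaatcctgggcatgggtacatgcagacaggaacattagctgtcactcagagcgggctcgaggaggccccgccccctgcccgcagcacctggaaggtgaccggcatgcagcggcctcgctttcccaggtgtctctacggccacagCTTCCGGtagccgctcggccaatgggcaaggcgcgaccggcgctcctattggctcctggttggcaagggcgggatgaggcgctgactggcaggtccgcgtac
Uqcr11: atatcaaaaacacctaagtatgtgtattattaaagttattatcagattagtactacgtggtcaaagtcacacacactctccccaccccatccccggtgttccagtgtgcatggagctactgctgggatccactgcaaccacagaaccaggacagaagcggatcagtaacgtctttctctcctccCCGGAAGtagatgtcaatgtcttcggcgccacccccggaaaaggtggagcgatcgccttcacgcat
Cox6a1: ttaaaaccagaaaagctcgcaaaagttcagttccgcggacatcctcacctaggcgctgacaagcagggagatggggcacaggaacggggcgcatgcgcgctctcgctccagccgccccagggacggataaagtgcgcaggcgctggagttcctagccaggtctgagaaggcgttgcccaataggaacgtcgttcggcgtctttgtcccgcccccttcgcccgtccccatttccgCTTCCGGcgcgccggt
The capitals lie 62 bases before the start in H2-Eb1, 51 in H2-Aa, 102 in Atp5e, 66 in Uqcr11 and 16 in Cox6a1. Counted on both strands, the ETS core letters were present in 19.5% of the 9728 tested genes with a promoter sequence, and the Y box letters in 6% of them. Over all 32851 promoter stretches of the same length the shares were 8.9% and 4.1%. A match of letters is a description and does not show that a factor binds there.

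The libraries held 6778999 to 9698841 fragments. The 13 mitochondrially encoded genes took 60.9% ± 2.91 (SD, n = 3) of the fragments in the overexpression libraries, 78.8% ± 6.18 in the db/db-veh libraries and 71.8% ± 5.28 in the db/m-veh libraries. The overexpression libraries (58.6% to 64.2%) lay below the diabetic ones (75.1% to 86.0%), a difference of -17.9 percentage points with a two-sided exact permutation p of 0.1, the smallest that 3 against 3 allows. The overexpression libraries were also larger, with 8584684 to 9698841 fragments in total against 6778999 to 7704085 in the diabetic ones. Nuclear fragments numbered 3232651 to 3883069 per overexpression library and 1081650 to 1910975 per diabetic library. FPKM divides by all fragments, so a larger mitochondrial share lowers the deposited values of nuclear genes. The median-of-ratios size factors, computed from 5944 nuclear genes, were 1.3, 1.35 and 1.38 for the overexpression libraries and 0.958, 0.546 and 0.823 for the diabetic ones. Each result is therefore given on both scales: as deposited, and after division by the size factor (scaled FPKM). The markers of the labelled tissue were present, with the 16 proximal tubule markers summing to 1653 to 2037 scaled FPKM in the overexpression libraries and 1538 to 2618 in the diabetic ones.

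The overexpression kidney and the diabetic kidney differed at many nuclear genes, and most calls were of genes higher with overexpression. As deposited, 3640 genes (29.6% of those tested) were higher and 54 (0.439%) were lower in the overexpression kidneys, by limma at a Benjamini-Hochberg adjusted p under 0.05 (n = 3 libraries a group). Over all 12312 genes the median difference was 0.63, in log2(FPKM + 0.5) units with the diabetic mean subtracted from the overexpression mean. After median of ratios it was 0.03, and 494 genes (4.01%) were higher and 145 (1.18%) lower. Each count of a gene list below is to be read beside these shares of all tested genes. All 494 of the higher calls after scaling were also called higher as deposited, 51 of the 145 lower calls were called lower on both scales, and 0 genes were called in opposite directions. Higher calls made up 98.5% of all calls as deposited and 77.3% after scaling. The share was 32.4% when the nuclear FPKM of each library was scaled to 1 equal sum (235 higher, 490 lower), which moved the median of all genes to -0.31, and 64.3% after quantile normalization.

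The number of calls depended on single libraries. As deposited, 3694 genes in all were called (30.0%), against 2003 without DB 2, 1855 without OE 2 and 1825 without OE 3. After median of ratios 639 were called (5.19%), against 311 without DB 1, 384 without OE 1, 195 without OE 2 and 190 without OE 3. A set of 147 genes, 107 higher and 40 lower, was called after median of ratios in the full data and with each of the 9 libraries left out in turn. For 7214 genes (58.6%) the 95% interval of the scaled difference lay within 1 log2 unit of 0 on both sides, and as deposited this held for 2643 (21.5%). Of the genes that met the FPKM rule through the overexpression libraries alone (401), 135 were called higher after scaling, and of the 18 that met it through the diabetic libraries alone, 13 were called lower. Such genes had to differ, so these counts carry no weight. For a named gene of this kind the adjusted p printed is that of the fit without the filter, over the 16489 nuclear genes with a fragment in any of the 6 libraries, and it is marked unfiltered.

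**Figure D1:**
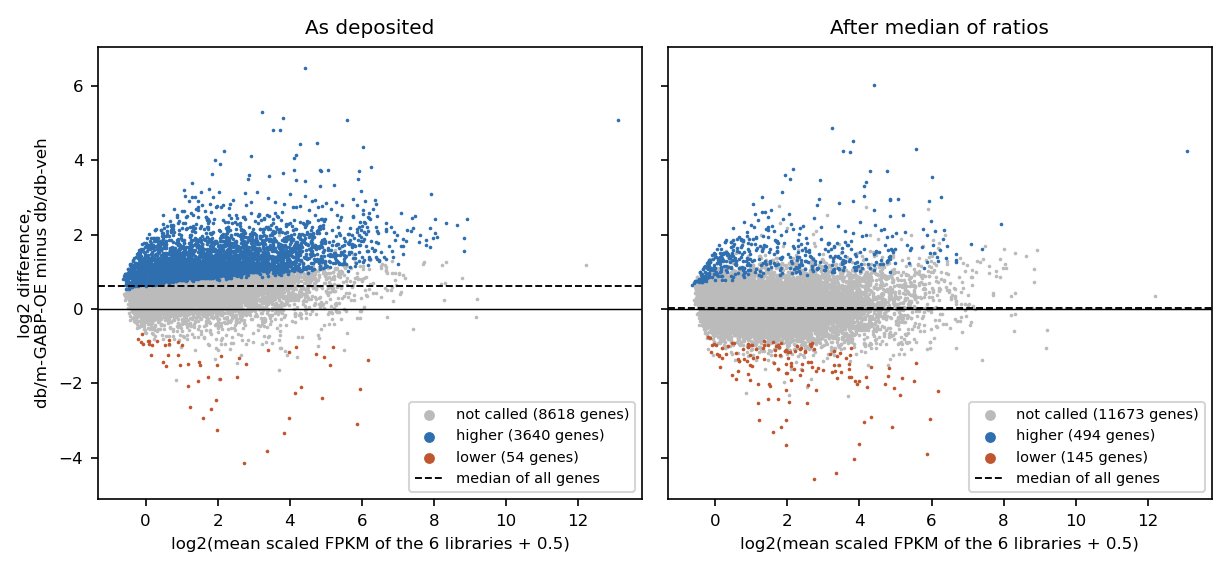
Log2 difference (overexpression minus db/db-veh, limma) of each of the 12312 tested genes against its level, log2 of the mean scaled FPKM of the 6 libraries plus 0.5, as deposited and after median of ratios. Genes called higher are blue and genes called lower are red, and the dashed line, the median of all genes, moves from 0.63 to 0.03 with scaling.

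On average over all tested genes, the overexpression libraries were nearer to the lean vehicle libraries than to the diabetic ones. After median of ratios the root mean square log2 difference between a library of the overexpression group and one of db/db-veh was 0.741 on average over the 9 pairs (0.591 to 0.843), and 0.606 (0.533 to 0.677) against db/m-veh. The lean vehicle and the diabetic libraries lay 0.691 apart. Libraries of the same group differed by 0.457 within the overexpression group, 0.631 within db/db-veh and 0.600 within db/m-veh. Overexpression libraries 1, 2 and 3 were 0.669, 0.731 and 0.824 from the diabetic libraries and 0.574, 0.590 and 0.655 from the lean vehicle ones, so each was nearer to the lean vehicle group on average. Single pairs overlapped, as OE 1 was 0.591 from DB 1 and 0.600 from lean vehicle library 3. Depth differed too, with 1081650 to 1910975 nuclear fragments per diabetic library and 1511433 to 2938012 per lean vehicle library. Fewer fragments add counting noise to a distance, and the part of depth was not tested. As deposited, the mean distances were 1.04 to db/db-veh and 0.753 to db/m-veh. These distances are descriptions over genes, which are not independent replicates. The tested genes were chosen by their levels in the overexpression and db/db-veh libraries alone. Of them, 401 met the FPKM rule only through the former and 18 only through the latter, and these had to differ between those groups. Genes present in db/m-veh alone were left out, so the selection favours a longer distance to db/db-veh than to db/m-veh. In the same model, the overexpression group set against db/m-veh gave 58 higher (0.471%) and 9 lower calls (0.0731%) after scaling, and db/db-veh against db/m-veh gave 13 higher (0.106%) and 18 lower (0.146%). As deposited these counts were 496 higher (4.03%) and 17 lower (0.138%) for the former contrast and 5 higher (0.0406%) and 20 lower (0.162%) for the latter. The 3 contrasts share libraries pairwise, so their counts are not independent of each other.

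**Figure D2:**
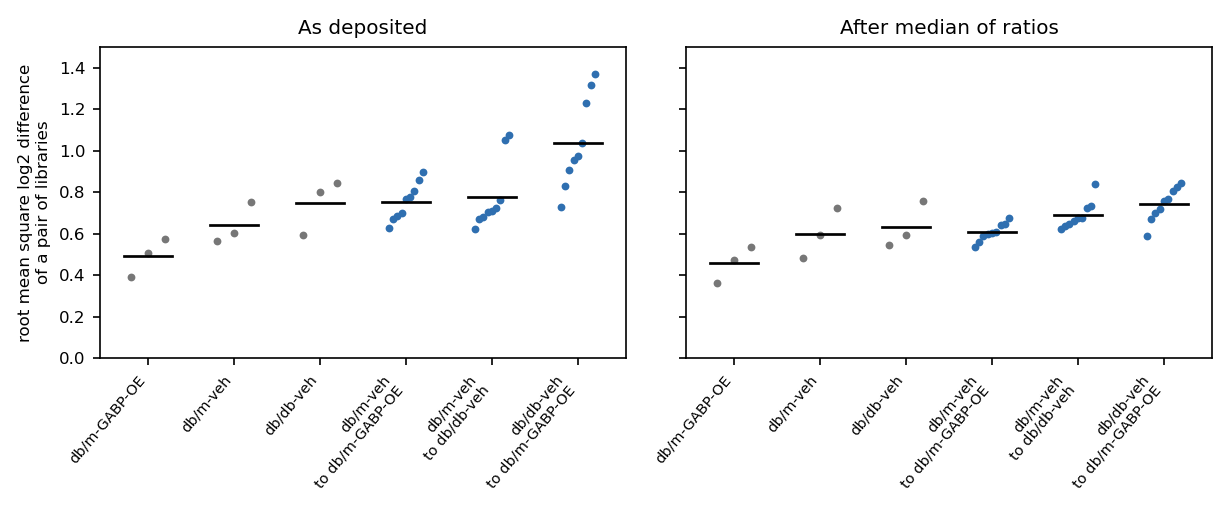
Root mean square log2 difference over the 12312 tested genes for each pair of libraries, by pair of groups, with 1 point per pair and the bar at the mean. After median of ratios the overexpression to diabetic pairs average 0.741 and the overexpression to lean vehicle pairs 0.606.

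The GABP subunit genes and Gli1 did not pass the test on either scale. Gabpa, the DNA-binding subunit, was at 3.45, 3.35 and 3.71 FPKM in the overexpression libraries, 2.20, 2.17 and 1.63 in db/db-veh and 1.79, 2.32 and 2.54 in db/m-veh. All 3 overexpression values lay above the diabetic ones as deposited, with a difference of 0.69 ± 0.28 (SE) and a limma adjusted p of 0.073. After scaling the group means were 2.60 ± 0.102 and 2.75 ± 1.07 (SD, n = 3), and the difference was -0.02 with a 95% interval from -0.59 to 0.55. The beta subunit gene Gabpb1 gave 0.58 as deposited (adjusted p 0.13) and -0.02 after scaling (-0.49 to 0.46), and Gabpb2 gave 0.51 (0.12) and 0.10 (-0.38 to 0.57). For all 3 genes every overexpression library lay above the diabetic ones as deposited, and for 0 of them after scaling. Without DB 1, 1 of the 3 was called higher as deposited. In the main fit, none of the 3 genes was called different from db/db-veh in its RNA. The reference here was the diabetic group and not the lean vehicle group. The labels do not say whether these gene models cover the transcript of the construct.

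Gli1 stood at 0.643, 1.09 and 2.38 FPKM in the overexpression libraries and at 0.797, 0.0260 and 0.652 in the diabetic ones, and the groups overlapped. Its difference was 0.91 as deposited (limma adjusted p 0.058) and 0.54 ± 0.36 (SE) after scaling (adjusted p 0.46, 95% interval -0.25 to 1.32). Of 13 tested Hedgehog pathway genes, 5 were higher as deposited, on a scale where 29.6% of all tested genes were higher. After scaling 0 of the 13 were called in the main limma fit or by voom, and the leave-outs called 0 to 1 higher. There 3 had an unadjusted limma p under 0.05, and the median difference was 0.11. With library weights 3 were higher and 2 lower after scaling, and the 5 higher as deposited became 3 without DB 2, OE 2 or OE 3. The receptor gene Ptch1, itself a target of the pathway, gave 0.10 as deposited and -0.30 after scaling. Of 16 genes for mitochondrial biogenesis and known GABP targets, 2 were higher as deposited, the complex IV subunits Cox4i1 (2.02) and Cox5b (2.67). After scaling 0 of the 16 were called in the main limma fit, where 4 had an unadjusted p under 0.05 and the median was -0.12. Other fits called a few. Voom and a replicate block each gave 2 higher, and all 12 libraries in the fit gave 1 higher. Library weights gave 2 higher and 1 lower, and an equal nuclear FPKM sum gave 2 lower. Without DB 3, 2 were higher, and without lean vehicle library 1, 1 was. Tfam, the mitochondrial transcription and packaging factor, gave 0.56 and -0.13 on the 2 scales and passed on neither.

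Genes of steroid handling that respond to androgen in mouse kidney were much higher in the overexpression kidneys than in the diabetic ones. Of 20 tested members of this list, 16 were higher as deposited and 12 after scaling, 0 were lower, and the median scaled difference was 1.68 against 0.03 for all genes. Of the 12, Slc22a7 and Akr1c18 met the FPKM rule through the overexpression libraries alone, and the library weights fit called 14. Slc22a7, the organic anion transporter OAT2, was at 38.8, 59.0 and 70.6 FPKM in the overexpression libraries, 0.211, 0.0618 and 0.0620 in the diabetic ones and 26.2, 9.57 and 6.12 in db/m-veh. The diabetic libraries were far below every other library, and the scaled difference was 6.02 ± 0.43 (SE; unfiltered adjusted p 0.0011). It met the FPKM rule through the overexpression libraries alone. The diabetic libraries held 5 fragments of it against 3213, a ratio of 521 per fragment sequenced (95% interval 223 to 1607, counting error only).

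Akr1c18, the enzyme 20-alpha-hydroxysteroid dehydrogenase that inactivates progesterone, was at 12.8, 14.7 and 44.7 FPKM with overexpression and at 0, 0 and 0.108 in db/db-veh, and its scaled difference was 4.86 ± 0.50 (SE; unfiltered adjusted p 0.0030). The diabetic libraries held 1 fragment of it against 775, so the ratio of 629 has a counting interval from 113 to 24872. Kap, the kidney androgen-regulated protein of the proximal tubule, was at 14741, 30365 and 22350 FPKM against 850, 348 and 836, and at 14988, 2774 and 6747 in db/m-veh. Its overexpression values did not overlap the diabetic ones and reached from within to above the lean vehicle range, with a scaled difference of 4.27 ± 0.65 (SE; adjusted p 0.0039). Cyp7b1, which hydroxylates oxysterols and steroids, was at 17.6, 20.3 and 50.4 FPKM against 0.953, 0.180 and 0.361, a scaled difference of 4.25 ± 0.39 (SE; adjusted p 0.00011). Slco1a1, an organic anion transporter of the apical membrane, rose by 3.15, Acsm3, a medium-chain acyl-CoA synthetase, by 2.43, and Aoc1, the diamine oxidase that degrades histamine and polyamines, by 2.11 (adjusted p 0.0052, 0.0055 and 0.0056). Aoc1 was also low in the lean vehicle libraries, at 0.336, 0.270 and 0.691 FPKM against 3.64, 8.32 and 6.44 with overexpression.

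These 7 genes kept their scaled call with each of the 9 libraries left out. The other 5, Hsd3b4, Hsd17b2, Hsd17b11, Cyp2j13 and the polyamine enzyme Odc1, lost it in at least 1 leave-out, and the list's count of 12 fell to 7 without OE 2 or OE 3. The summed scaled FPKM of the list was 11598 to 22920 in the overexpression libraries, 815 to 1346 in the diabetic ones and 3513 to 15308 in the lean vehicle ones. Outside the list, Ttr, the carrier of thyroxine and retinol, was at 20.3, 42.6 and 36.9 FPKM against 1.99, 0.328 and 0.220, and at 28.8, 1.73 and 1.63 in db/m-veh. It rose by 4.22 ± 0.81 (SE; adjusted p 0.013), a call lost without OE 2 (0.0578) or OE 3 (0.0650). Mettl7a2, a methyltransferase-like protein, was at 7.0, 5.94 and 13.8 FPKM against 0.163, 0 and 0 (3.60 ± 0.54 SE, unfiltered adjusted p 0.019). Sex was not labelled, and the Y-linked gene Ddx3y was present in both groups at 8.77 ± 2.33 FPKM with overexpression and 4.8 ± 1.15 in db/db-veh (SD, n = 3), with a scaled difference of 0.03.

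**Figure D3:**
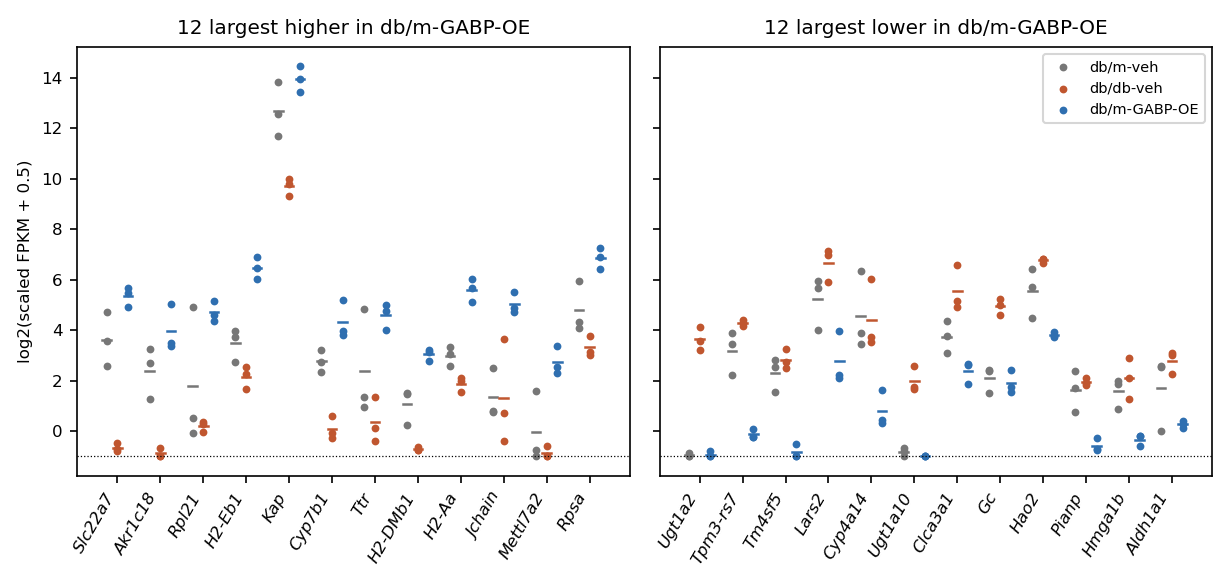
Level of the 12 genes with the largest higher and the 12 with the largest lower differences in each library of the 3 groups, as log2 of scaled FPKM plus 0.5, with 1 point per library, the bar at the mean and the dotted line at an FPKM of 0. The overexpression and the diabetic points do not overlap for any of the 24 genes, which the rule for naming them required.

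The MHC class II genes, which present peptides to CD4+ T cells, were higher in the overexpression kidneys. Of 9 tested members 9 were higher as deposited and 8 after scaling, with a median scaled difference of 2.95. Of these 8, 3 met the FPKM rule through the overexpression libraries alone, so they add no weight to the count. All 3 were also called without the filter. H2-Eb1, a class II beta chain, was at 85.5, 161 and 120 FPKM in the overexpression libraries, 2.58, 2.34 and 4.42 in db/db-veh and 15.5, 10.8 and 6.99 in db/m-veh. The overexpression values lay above both other groups, and the scaled difference from db/db-veh was 4.30 ± 0.37 (SE; adjusted p 7.3e-05). H2-Aa, an alpha chain, was at 44.1, 86.5 and 70.7 FPKM against 3.26, 1.33 and 3.15 (3.72 ± 0.31 SE, adjusted p 7.1e-05). Cd74, the invariant chain that escorts class II molecules, was at 103, 200 and 255 FPKM against 12.7, 8.73 and 14.7 (3.01 ± 0.34 SE, adjusted p 0.00061).

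H2-DMb1, part of the peptide-loading factor DM, had 3 fragments in the diabetic libraries against 488 and rose by 3.77 (unfiltered adjusted p 0.0011), H2-Ab1 by 2.95 (adjusted p 0.0031) and H2-Ob by 1.23 (unfiltered adjusted p 0.0064). Ciita, the coactivator that switches class II genes on, rose by 0.95 (unfiltered adjusted p 0.021), and its call in the filtered fit was lost without OE 2 (0.0918) or OE 3 (0.0569). H2-DMb1, H2-Ob and Ciita met the FPKM rule through the overexpression libraries alone. H2-DMa was the other call lost in leave-outs, and the count stayed between 6 and 8. The summed scaled FPKM of the class II list was 226 to 415 with overexpression, 25.7 to 42.4 in db/db-veh and 49.0 to 81.1 in db/m-veh. The Y box letters printed above for H2-Eb1 and H2-Aa were found in 2 of the 6 class II genes with a promoter sequence, and in 5.1% of the genes called higher. Mouse H2 genes are near-identical in parts, so fragments may have been shared between them in counting.

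Markers of macrophages, and some of lymphocytes, were higher in the same libraries. Of 10 tested macrophage markers 10 were higher as deposited and 7 after scaling (median 1.48), with summed scaled levels of 100 to 175 in the overexpression libraries, 18.9 to 29.1 in db/db-veh and 27.3 to 40.8 in db/m-veh. C1qa, a chain of complement C1q made largely by tissue macrophages, was at 29.6, 54.3 and 48.0 FPKM against 3.4, 1.12 and 1.75, a scaled difference of 3.42 ± 0.35 (SE; adjusted p 0.00027). C1qb rose by 2.33, C1qc by 2.97 and the mannose receptor Mrc1 by 1.37 (adjusted p 0.0011, 0.00029 and 0.0091), and these 4 kept their calls in every leave-out. The lysozyme gene Lyz2 rose by 2.51 (adjusted p 0.015), lost without OE 2 (0.0582) or OE 3 (0.0754). The macrophage count fell from 7 to 4 without OE 3, and 1 of the 7 met the FPKM rule through the overexpression libraries alone.

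Of 7 tested lymphocyte markers 7 were higher as deposited and 5 after scaling, but 4 of these 5 met the FPKM rule through the overexpression libraries alone, so their count gives no support. All 4 were also called without the filter. The sums were 6.55 to 11.4 scaled FPKM against 0.750 to 1.64. Cd4, the helper T cell coreceptor, was at 1.15, 1.58 and 2.22 FPKM with overexpression, 0.0731, 0.129 and 0 in db/db-veh and 0.217, 0.0728 and 0.0266 in db/m-veh (1.51 ± 0.23 SE, unfiltered adjusted p 0.0086). Nkg7, a granule protein of cytotoxic lymphocytes, had 60 fragments in the overexpression libraries and 0 in the diabetic ones. It was 16.2-fold higher when the diabetic group was set to a floor of 3 fragments (unfiltered adjusted p 0.017). With the counting error of both groups the lower 95% limit was 12.8-fold. Jchain, which joins the chains of secreted IgA and IgM, was at 34.1, 61.1 and 39.9 FPKM against 1.11, 6.65 and 0.207 and rose by 3.71 ± 0.80 (SE; adjusted p 0.022). That call was lost without DB 1 (0.0764) or any 1 of the overexpression libraries 1, 2 and 3 (0.0522, 0.0911 and 0.0788). The lymphocyte count fell from 5 to 3 without DB 1, DB 3 or OE 3 and to 2 without OE 2. In bulk tissue, fewer cells of a type and less RNA per cell cannot be told apart, and the part of immune cell number in the class II result was not tested.

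Of the inflammatory and interferon-stimulated genes called after scaling, 3 kept their call with each library left out. Of 21 inflammatory mediators 14 were higher as deposited and 8 after scaling (median 0.71), falling to 4 without OE 2 or OE 3. The lowest scaled difference in the list was -1.97, and 1 member had all 3 overexpression libraries below the diabetic ones. The main fit called 0 lower, while library weights and an equal nuclear FPKM sum each called 1 lower. Of 3 tested neutrophil markers 0 were called after scaling in the main fit, with differences from -1.97 to 0.61. The T cell and monocyte attractant Ccl8 was at 9.32, 13.7 and 5.92 FPKM against 0.577, 0 and 0, and Ccl5 at 5.65, 7.08 and 3.88 against 0.307, 0 and 0.678. The diabetic libraries held 2 fragments of Ccl8 against 137, a ratio of 55.6 (15.1 to 464). The scaled differences of Ccl8 and Ccl5 were 3.49 ± 0.37 and 2.47 ± 0.39 (SE; adjusted p 0.00038 and 0.0051), and both kept the call in every leave-out. The other 6 called members were Tnf, Ccl2, Ccl12, Cxcl9, Cxcl16 and Tlr2, of which Tnf and Tlr2 met the FPKM rule through the overexpression libraries alone and Tlr2 was not called without the filter (adjusted p 0.067). Of 26 interferon-stimulated genes 19 were higher as deposited and 7 after scaling (median 0.83), and 1 remained called without OE 2 or without OE 3, against 4 without any 1 of the diabetic libraries and 16 with library weights. Isg15, a ubiquitin-like antiviral protein, was at 5.99, 9.09 and 15.4 FPKM against 1.05, 1.29 and 0.741 and kept its call in every leave-out (2.02 ± 0.34 SE, adjusted p 0.0060). Of 20 complement genes 13 were higher as deposited (8 without OE 2) and 4 after scaling, the 3 C1q chains and the complement inhibitor Cd55, whose call was lost in leave-outs.

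Nuclear genes of the respiratory chain were higher as deposited, and fewer were called after scaling. Of 37 complex I subunit genes 28 were higher as deposited and 10 after scaling, 0 were lower, and the median was 1.64 and then 0.82. Ndufs5, an accessory subunit, was at 30.0, 45.2 and 51.4 FPKM in the overexpression libraries, 3.09, 1.51 and 1.67 in db/db-veh and 20.1, 8.53 and 19.0 in db/m-veh. The diabetic libraries stood below both other groups, and the scaled difference was 3.31 ± 0.31 (SE; adjusted p 0.00013). Ndufb9, another accessory subunit, was at 19.0, 23.8 and 19.5 FPKM against 4.43, 2.14 and 3.28 (1.77 ± 0.26 SE, adjusted p 0.0034). The count of 10 fell to 4 without DB 1, 3 without DB 2, 2 without OE 2, 5 without OE 3 and 6 without lean vehicle library 3, and Ndufs5 and Ndufb9 kept their calls throughout. With equal nuclear sums the complex I count was 3 and its median 0.37, and with library weights 26 were higher and 1 lower (median 0.96). As deposited the 28 became 17 without OE 2.

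Of 38 genes of complexes II to V 27 were higher as deposited and 6 after scaling (median 0.72). Atp5e, the epsilon subunit of the ATP synthase, was at 52.3, 71.7 and 56.4 FPKM with overexpression, 13.9, 7.83 and 11.5 in db/db-veh and 29.4, 33.9 and 46.0 in db/m-veh. It rose by 1.6 ± 0.26 (SE; adjusted p 0.0059) and kept the call in every leave-out. Uqcr11, a complex III subunit, rose by 2.09 (adjusted p 0.016; lost at 0.0619 without DB 1, 0.0787 without OE 2 and 0.0665 without OE 3). Cox6a1, a complex IV subunit, rose by 2.28 (0.029; lost at 0.112 and 0.0878 without DB 1 or 2 and at 0.118 and 0.136 without OE 2 or 3). The count of 6 became 1 without DB 1, OE 2 or OE 3, 2 without DB 2 and 13 without DB 3. With library weights 21 were higher and 1 lower. The ETS core letters were present in 12 of 30 promoters of this list (40%) and in 4 of 33 for complex I (12.1%), against 19.5% of all tested genes, 13.8% of those called higher and 5.3% of those called lower.

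Ribosomal protein genes gave the same contrast between scales. Of 51 cytosolic ribosomal protein genes 42 were higher as deposited and 7 after scaling (median 0.71), a count that fell to 1 without OE 2, 2 without DB 1 or OE 3, 3 without DB 2 and 4 without OE 1 or lean vehicle library 3, and that became 30 with library weights. As deposited the 42 became 22 without OE 2 and 24 without OE 3. Rps18 was at 69.8, 77.9 and 56.5 FPKM against 6.14, 2.65 and 6.00, and of the 7 it alone kept its call in every leave-out (2.94 ± 0.33 SE, adjusted p 0.00061). Outside the list, Rpsa was at 112, 160 and 213 FPKM against 8.0, 4.18 and 10.8 (3.55 ± 0.45 SE, adjusted p 0.0014). Rpl21 was at 26.4, 32.0 and 48.7 FPKM against 0.694, 0.420 and 0.383, while the lean vehicle libraries held 29.8, 0.777 and 0.504. Its difference of 4.52 ± 0.93 (SE; adjusted p 0.017) was lost without DB 1 (0.0523), OE 2 (0.0612) or OE 3 (0.0827). Ribosomal protein genes have many near-identical processed copies, so the values of single genes depend on how shared fragments were counted. Of 38 mitochondrial ribosomal protein genes 24 were higher as deposited and 2 after scaling, Mrpl20 and Mrps11, both lost in leave-outs, and the median of 0.32 became -0.06 with equal nuclear sums. The 24 became 13 without DB 2 and 11 without OE 2 or OE 3, and library weights called 12 after scaling.

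Exon length moved with these results. The tested genes were split by exon length into 4 classes of about equal size. In the class with the shortest exon models (201 to 2712 bases) the median scaled difference was 0.28, with 274 genes higher and 58 lower, and in the class with the longest (6659 to 41155 bases) it was -0.08, with 32 higher and 23 lower. The median exon length was 2515 bases for genes called higher, 3315 for genes called lower and 4322 for all. Relative to the mean of each gene over the 9 libraries, the shortest class had medians of -0.17, -0.25 and -0.13 in db/db-veh and 0.04, 0.15 and 0.20 in the overexpression libraries. When the trend with exon length was removed from each library, an alternative chosen after seeing the data, 267 genes were higher and 159 lower, so that 62.7% of the calls were higher in place of 77.3%. Of the scaled calls, 3 of 10 in complex I were also called with the trend removed (median 0.38), 3 of 6 in complexes II to V (0.23), 3 of 7 in the cytosolic ribosome (0.43) and 0 of 2 in the mitochondrial ribosome (0.20). The same held for 7 of 8 in class II (2.67), 8 of 12 in the androgen list (1.61), 7 of 7 in the macrophage list (1.31) and 7 of 7 in the glucose and amino acid list (-0.92). Isg15, Hsd3b4 and Uqcr11 were among the calls lost under it.

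**Figure D4:**
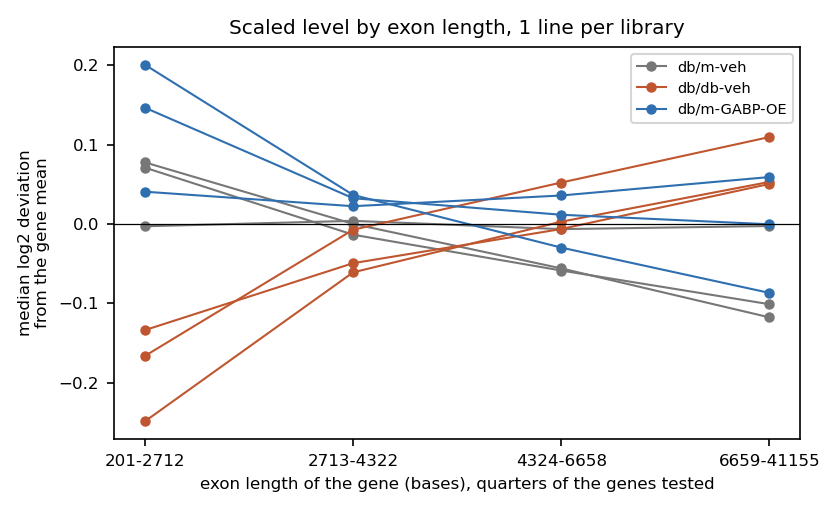
Median log2 deviation from the gene mean over the 9 libraries, after median of ratios, in 4 classes of exon length, with 1 line per library. In the shortest class the 3 diabetic libraries lie lowest (-0.25 to -0.13) and the overexpression libraries lie between 0.04 and 0.20.

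Among genes lower in the overexpression kidneys, glucuronosyltransferases of the Ugt1a cluster stood out by their near absence. Ugt1a2 was at 0.10, 0 and 0 FPKM in the overexpression libraries, 8.34, 9.33 and 9.24 in db/db-veh and 0, 0 and 0.0484 in db/m-veh. It was thus detected at more than trace levels in the diabetic libraries alone of these 9, with a scaled difference of -4.56 ± 0.25 (SE; unfiltered adjusted p 0.00013). In fragments this was 2 against 441, a ratio of 0.00368 per fragment sequenced (95% interval 0.000444 to 0.0134). Ugt1a10 was at 0 in each overexpression library and at 2.73, 2.98 and 2.18 FPKM in db/db-veh. It was 54.2-fold lower when the overexpression group was set to a floor of 3 fragments (unfiltered adjusted p 0.0011). With the counting error of both groups the upper 95% limit of the ratio was 0.0230. Ugt1a7c was at 0.892, 1.27 and 1.63 FPKM against 5.14, 3.72 and 4.60 (-2.17 ± 0.35 SE, adjusted p 0.0053). These enzymes attach glucuronic acid to bilirubin, steroids and drugs, and their transcripts share their last exons, so the counts of single members depend on how shared exons were treated. In the list of 23 glucuronosyltransferase and cytochrome P450 genes 6 were higher and 4 lower as deposited, and 1 was higher and 5 lower after scaling, Ugt1a2 and Ugt1a10 having met the FPKM rule through the diabetic libraries alone. The count of 6 higher as deposited became 3 without OE 2 or OE 3. The higher one was Cyp2a4, a steroid 15-alpha-hydroxylase, at 125, 136 and 170 FPKM against 14, 4.63 and 17.3 (2.90 ± 0.40 SE, adjusted p 0.0025).

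Among genes of vitamin D handling, 2 were lower after scaling. Gc, the vitamin D-binding protein, was at 3.12, 3.8 and 6.75 FPKM with overexpression, 23.0, 20.3 and 25.5 in db/db-veh and 2.37, 4.14 and 5.28 in db/m-veh. The overexpression and lean vehicle ranges overlapped and the diabetic range lay above both, with a scaled difference from db/db-veh of -3.05 ± 0.33 (SE; adjusted p 0.00039). Cyp24a1, which inactivates vitamin D, was at 3.17, 3.10 and 1.34 FPKM against 6.88, 5.36 and 8.41 (-2.05 ± 0.29 SE, adjusted p 0.0025). They were the 2 called after scaling among 18 vitamin D and phosphate genes, whose median was -0.53. As deposited 1 of the 18 was higher and 2 were lower, the median was 0.28, and the higher call was lost without DB 2, OE 2, OE 3 or lean vehicle library 3 and a lower one without OE 3. Gc and Cyp24a1 kept the scaled call in every leave-out.

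Some genes for the transport of glucose and amino acids and for gluconeogenesis were lower after scaling. Of 28 tested members 5 were higher and 2 lower as deposited, and 0 were higher and 7 lower after scaling (median -0.75), so the direction of this list depended on the scale. The 5 higher calls became 1 without DB 2 or OE 3, 2 without OE 2 and 3 without lean vehicle library 3, and the 2 lower calls became 0 without OE 1 and 1 without OE 2. Slc3a1, the heavy chain of the renal cystine transporter, was at 6.48, 7.53 and 10.3 FPKM with overexpression, 21.8, 17.3 and 16.3 in db/db-veh and 9.10, 6.14 and 8.91 in db/m-veh. The diabetic libraries were above the others on the deposited scale as well, and the scaled difference was -1.95 ± 0.26 (SE; adjusted p 0.0020). Slc6a19, the main neutral amino acid transporter of the brush border, was at 8.89, 6.92 and 4.16 FPKM against 15.9, 8.01 and 15.3. These values overlapped as deposited (-0.92, adjusted p 0.076) and differed after scaling (-1.70 ± 0.29 SE, adjusted p 0.0074). Both kept the scaled call in every leave-out, and the other 5, Slc2a5, Fbp1, Slc7a7, Slc7a12 and Slc16a9, did not. The count of 7 fell to 2 without DB 1 or OE 2 and to 3 without OE 1 or OE 3. The glucose transporter SGLT2 (Slc5a2) gave -0.96 after scaling with an adjusted p of 0.32.

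Several further genes had large lower values. Hao2, a peroxisomal hydroxy acid oxidase of the kidney, was at 17.2, 19.7 and 17.6 FPKM against 108, 61.1 and 84.1 (-2.97 ± 0.41 SE, adjusted p 0.0024). Lars2, the mitochondrial leucyl-tRNA synthetase, was at 5.0, 5.66 and 21.0 FPKM against 120, 76.8 and 48.9 and at 15.8, 52.0 and 57.2 in db/m-veh (-3.90 ± 0.58 SE, adjusted p 0.0038). Tm4sf5, a membrane protein of the tetraspanin-like group, had 3 fragments against 132, a ratio of 0.0184 (95% interval 0.00376 to 0.0551, counting error only), and the lean vehicle libraries held 2.43, 5.48 and 6.00 FPKM, near the diabetic 8.65, 3.35 and 4.28. It and Tpm3-rs7, a tropomyosin-related copy at 0.464, 0.480 and 0.759 FPKM against 16.9, 10.3 and 17.1, were lower with overexpression than in both vehicle groups. Their scaled differences were -3.67 and -4.42 from db/db-veh (unfiltered adjusted p 0.0017 for Tm4sf5, which met the FPKM rule through the diabetic libraries alone, and adjusted p 7.1e-05 for Tpm3-rs7) and -3.13 and -3.32 from db/m-veh (adjusted p 0.0016 for both). Clca3a1 fell by 3.19, Pianp by 2.52 and Hmga1b by 2.42 (adjusted p 0.0025, 0.0022 and 0.0056). Cyp4a14, a fatty acid hydroxylase induced through PPAR-alpha, was at 0.979, 1.15 and 3.58 FPKM against 10.5, 6.93 and 52.7 and fell by 3.63 ± 0.75 (SE; adjusted p 0.018), a call lost without OE 1 (0.0640) or OE 2 (0.0787). Ppara itself was the other of the 2 lower among 24 PPAR-alpha and fatty acid oxidation genes (median -0.63) and was also lost in leave-outs (up to 0.115 without OE 3), with 5 of the list higher (2 without DB 2, OE 2 or OE 3) and 1 lower as deposited. Aldh1a1, a retinaldehyde dehydrogenase, fell by 2.51 (adjusted p 0.022), and that call was lost without DB 1 (0.0747), DB 3 (0.0534) or any 1 of the overexpression libraries 1, 2 and 3 (0.0701, 0.0807 and 0.0781).

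**Figure D5:**
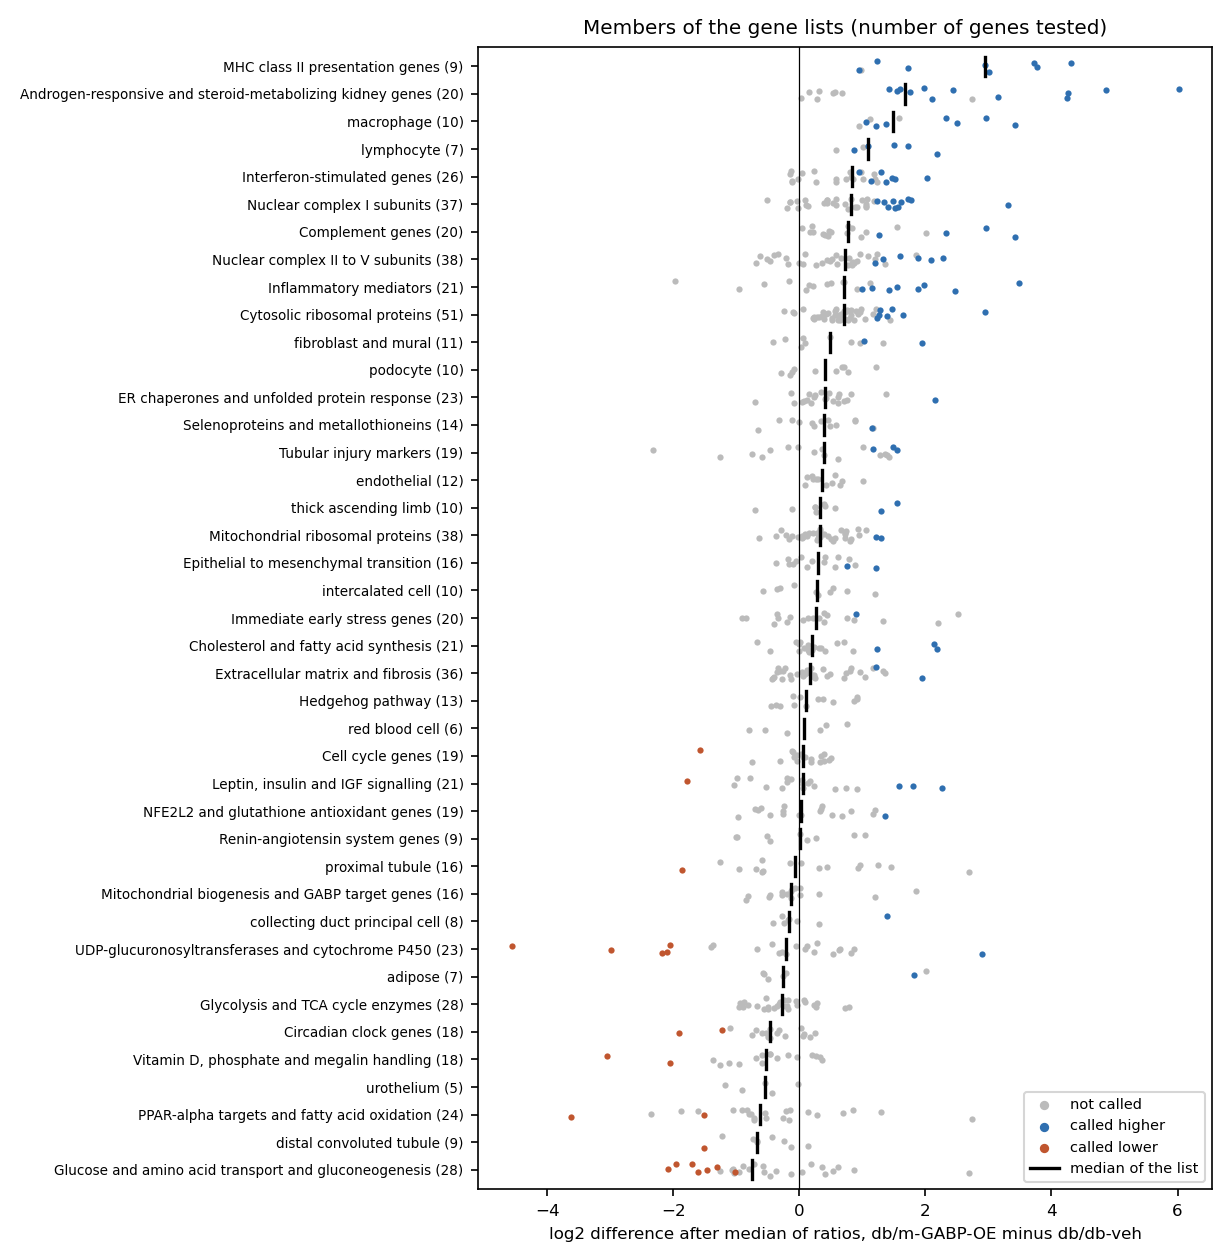
Scaled log2 differences (overexpression minus db/db-veh) of the tested members of each gene list with 5 or more, with 1 point per gene and the black bar at the list median. The class II list has the highest median (2.95) of the lists named in the text and the glucose and amino acid list the lowest (-0.75), with 0.03 for all genes.

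To describe resemblance, overexpression levels are given for genes that set the diabetic kidney apart from the lean vehicle kidney. There were 31 of these after scaling, the 13 higher and 18 lower calls given above. Both contrasts use the db/db-veh libraries, so the levels are given side by side as a description. The genes were chosen because the diabetic level stood apart, which favours an overexpression level on the lean side. Genes called higher in the diabetic kidney than in the lean vehicle kidney included Ugt1a2, at 0.0144 scaled FPKM in the lean vehicle group, 12.4 in the diabetic group and 0.0256 with overexpression, and Gc at 3.99, 30.8 and 3.36. Ces1d, a carboxylesterase and lipase, was at 7.55, 27.8 and 7.42, Apob, the structural protein of lipoproteins, at 1.55, 5.90 and 1.62, and Igfbp1, an insulin-repressed IGF-binding protein, at 0.238, 1.64 and 0.126. The predicted gene Gm6614 was at 2.60, 26.7 and 1.10, Slc3a1 at 8.07, 24.8 and 6.00, Zc3h6 at 0.359, 1.83 and 0.253 and Haus3, a subunit of the spindle complex augmin, at 1.07, 3.84 and 1.91. Genes called lower included Slc22a7 at 14.2, 0.136 and 41.5, Akr1c18 at 5.61, 0.0437 and 17.7, Ndufs5 at 15.6, 2.67 and 31.2, and Fxyd4, a regulator of the sodium pump in the collecting duct, at 7.79, 2.22 and 6.84. The histone gene Hist1h4h was at 5.35, 0.502 and 4.45, Hsd3b4, a steroid dehydrogenase, at 2.11, 0.206 and 1.44, and Borcs8, a subunit of a lysosome-positioning complex, at 5.62, 1.5 and 4.61. For these named genes the overexpression level was on the lean side of the diabetic level, the side that the choice of genes favoured.

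Sfrp2, a secreted Wnt antagonist, was nearer to the diabetic than to the lean vehicle level, at 10.4 scaled FPKM in the lean vehicle group, 0.708 in the diabetic group and 0.982 with overexpression. Values between the vehicle groups, nearer to the lean one, were seen for Ciart, a repressor in the circadian clock, at 0.340, 6.40 and 1.18, and for the potassium channel gene Kcnt1 at 0.622, 3.68 and 1.78. Igfbp2, another IGF-binding protein, was at 0.165, 0.972 and 4.60 and thus highest with overexpression, where its deposited FPKM were 4.02, 6.53 and 8.13 against 1.44, 0.351 and 0.634 in db/db-veh (1.80 ± 0.29 SE, adjusted p 0.0051).

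Of the injury, matrix and lipid synthesis genes, 9 of 19, 19 of 36 and 10 of 21 were higher as deposited, beside 29.6% of all tested genes, and few were called after scaling. Of 19 tubular injury markers 9 were higher as deposited and 3 after scaling (5 without DB 3, 0 without OE 2 or OE 3, and 8 with library weights): the adhesion molecule Vcam1 (1.49), the hyaluronan receptor Cd44 (1.17, a gene that met the FPKM rule through the overexpression libraries alone) and Umod (1.54), the uromodulin of the thick ascending limb, and all 3 were lost in leave-outs, Umod at up to 0.161 without OE 3, Vcam1 at up to 0.127 and Cd44 at up to 0.0687 without the same library. Umod is also in the thick ascending limb list, so its call is not particular to injury. The lowest scaled difference in the injury list was -2.33, and 1 member had all 3 overexpression libraries below the diabetic ones. Havcr1, the injury molecule KIM-1, gave 1.86 as deposited (adjusted p 0.0057) and 1.43 after scaling (0.11), and Lcn2 gave 1.66 (0.13) and 1.01 (0.63). Of 36 matrix genes 19 were higher as deposited (12 without DB 3, 11 without OE 2 and 10 without OE 3) and 2 after scaling, Col1a1 and Vim. Col1a1, the main fibrillar collagen chain, rose by 1.95 (adjusted p 0.034), lost at up to 0.129 without OE 2, and Fn1, fibronectin, gave 0.93 (0.076) and 0.12 (0.91). Of 21 cholesterol and fatty acid synthesis genes 10 were higher as deposited (6 without DB 2, OE 2 or OE 3) and 3 after scaling (1 without OE 3), and Hmgcs1, which makes HMG-CoA, kept its call in every leave-out (57.5, 62.2 and 48.0 FPKM against 8.44, 5.37 and 6.83, 2.14 ± 0.36 SE, adjusted p 0.0067).

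Few markers of the nephron segments were called after scaling, which does not show that the others were alike. Their deposited counts stand beside 29.6% of all tested genes called higher. In the proximal tubule list 5 of 16 were higher and 1 lower as deposited (3 higher without DB 2, OE 2 or OE 3, and 0 lower without DB 1, DB 3, lean vehicle library 3 or any 1 overexpression library), and 1 was lower after scaling: Gatm, the first enzyme of creatine synthesis, at 23.4, 17.8 and 20.1 FPKM against 48.6, 39.0 and 39.5 (-1.85 ± 0.28 SE, adjusted p 0.0039). With library weights 5 were higher and 3 lower after scaling. Of 9 distal convoluted tubule markers (median -0.67 after scaling) 0 were called as deposited by limma, with 1 at an unadjusted p under 0.05, and 1 was lower after scaling, the calcium buffer Pvalb (-1.52 ± 0.24 SE, adjusted p 0.0051), while library weights gave 3 lower. Of 10 podocyte markers 5 were higher as deposited and 0 called after scaling in the main limma fit or by voom, with 3 at an unadjusted p under 0.05. After scaling 4 were higher with library weights, and the leave-outs called 0 to 1 higher. Nphs1, the nephrin of the filtration slit, gave 0.35 as deposited and -0.29 after scaling. Of 12 endothelial markers 9 were higher as deposited and 0 called after scaling in the main limma fit or by voom, with 2 at an unadjusted p under 0.05 and 1 higher with library weights. As deposited the podocyte count of 5 became 2 without DB 2 or OE 1 and 3 without OE 2 or OE 3, and the endothelial count of 9 became 3 without DB 2 or OE 3 and 4 without OE 1 or OE 2. Among 7 adipose markers Ucp1, the uncoupling protein of brown fat, was at 1.83, 2.96 and 0.783 FPKM with overexpression and at 0 in the 3 diabetic libraries. With a floor of 3 fragments for the diabetic group it was 23.0-fold higher (lower 95% counting limit 18.3, unfiltered adjusted p 0.022). Adipoq, the defining adipocyte hormone, overlapped between the groups.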

How the data were processed

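Poly(A) RNA of mouse kidney was sequenced in paired ends with Illumina chemistry, per the labels' protocols. The authors deposited 1 table of FPKM values, and per the submitters' processing notes HTSeq and the build GRCm39 were used, with no versions stated. The sources used here do not state the aligner or the strand setting. With GENCODE M21 exon lengths (GRCm38), 98.3% of the 21846 genes with a length gave whole fragments in all libraries (tolerance 0.05 of a fragment), which supplied the fragment numbers. Files held 0 columns that were not used.

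The main test was limma 3.58.1 (trend, R 4.3.3) on log2(FPKM + 0.5) over 9 libraries (db/m-veh, db/db-veh and db/m-GABP-OE), with Benjamini-Hochberg adjustment over 12312 nuclear genes and a two-sided adjusted p under 0.05. It was run as deposited and after median-of-ratios size factors from nuclear genes at FPKM 1 or more in all 9 libraries. The values are normalized, so a count test served only as an alternative (voom on recovered fragments). A fold on this log2 scale understates low genes. The text names the 12 largest calls in each direction that did not overlap on either scale, called or leading members of the gene lists, and genes called between db/db-veh and db/m-veh. Motifs were searched in RefSeq promoter stretches. The members and lists were chosen with earlier results of these data known. Replicates showed no duplicate libraries. The script was tested on simulated data. Alternatives covered the pseudocount, the filter, the scaling, the libraries in the fit and each left-out library.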

Additional observations from a re-analysis of the deposited data

How the results depend on the processing

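The mitochondrial difference kept its sign under every alternative run, and so did each named gene on a scale where it was called. Values near 0 did not all keep it. The scaled median of the 3 GABP subunit genes moved from -0.02 to 0.04 with the exon length trend removed. The balance of the scaled calls did turn: with an equal nuclear FPKM sum 235 were higher and 490 lower, against 494 and 145. Under it, positive medians of several lists turned negative, among them the Hedgehog (-0.09), matrix (-0.22), cholesterol (-0.12), selenoprotein (-0.04), thick ascending limb (-0.11), intercalated cell (-0.13), endothelial (-0.05), antioxidant (-0.40) and leptin, insulin and IGF (-0.35) lists. Over 140 followed genes and the alternatives, 2536 values after scaling kept their side of the threshold and 531 lost the call. Over 180 genes followed as deposited, 3296 values kept it, 102 lost it and 8 gained it. These counts do not cover gains after scaling by other genes. Library weights, for example, called 3 Hedgehog genes higher and 2 lower where the main fit called 0. As deposited, the 3694 calls ranged from 1825 to 4435 over the 9 leave-outs, and from 2698 (all 12 libraries in the fit) to 4969 (library weights) over the other alternatives. After median of ratios, the 639 calls ranged from 190 to 824 over the leave-outs. Library weights gave 2793 calls (1820 higher, 973 lower), of which 65.2% were higher against 77.3% in the main result. Voom on recovered fragments gave 467, an equal nuclear FPKM sum 725, quantile normalization 597 (384 higher, 213 lower) and removal of the exon length trend, chosen after seeing the data, 426. Pseudocounts of 0.1 and 1 gave 566 and 638, no filter 489, a filter at FPKM 1 gave 539, and the 6 compared libraries alone 711. The cause of these differences was not tested. The mitochondrial difference of -17.9 points ranged from -19.8 to -14.3 over the leave-outs. Replicate numbers are shared by label only: with 3 pairs, deviations of same-numbered libraries correlated at 0.20, -0.05 and 0.14 as deposited and at 0.20, -0.06 and 0.14 after scaling, and overexpression library 2 did not correlate best with its own number. With a replicate block there were 4483 calls as deposited and 727 after scaling. Diabetic libraries of 1081650 to 1910975 nuclear fragments limit what low genes can show.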

Other observations

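Gene lists that the text has not described gave few calls after scaling. Their deposited counts stand beside 29.6% of all tested genes called higher. Of 23 endoplasmic reticulum chaperone and unfolded protein response genes 15 were higher as deposited (8 without OE 1 or OE 2, 5 without OE 3) and 1 after scaling (median 0.41). Of 14 selenoprotein and metallothionein genes 7 were higher as deposited (3 without DB 2 or OE 3) and 1 after scaling (median 0.40). Of 19 antioxidant genes of the NFE2L2 pathway 5 were higher as deposited (3 without DB 2 or OE 3, 9 without DB 3) and 1 after scaling, Sod1, the cytosolic superoxide dismutase (1.36 ± 0.26 SE, limma adjusted p 0.013, lost at 0.0789 without OE 2). Of 18 circadian clock genes 1 was higher and 1 lower as deposited (both lost without any 1 overexpression library) and 2 were lower after scaling, the repressors Ciart (-1.91) and Cry2 (-1.23). Ciart was lost at 0.0521 without OE 2, and Cry2 at up to 0.175 without OE 3. Of 28 genes of glycolysis and the TCA cycle 3 were higher as deposited and 0 were called after scaling in the main limma fit or by voom. There 4 had an unadjusted limma p under 0.05, and the median was -0.27. Library weights called 2 higher and 5 lower, and quantile normalization and an equal nuclear FPKM sum each called 1 lower. The 3 became 0 without DB 2, OE 2 or OE 3.

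In the leptin, insulin and IGF list of 21 genes 6 were higher and 1 lower as deposited, and 3 higher and 1 lower after scaling. Among all tested genes 29.6% were higher as deposited and 4.01% after scaling. Igfbp1 was at 0.363, 0.135 and 0 FPKM with overexpression and at 1.74, 1.02 and 1.02 in db/db-veh, and fell by 1.79 ± 0.25 (SE; adjusted p 0.0025). Igf1, insulin-like growth factor 1, rose by 1.59 (adjusted p 0.025), a call lost at up to 0.104 without OE 3. Of 10 thick ascending limb markers 5 were higher as deposited (2 without DB 2, OE 2 or OE 3, 3 without DB 3) and 2 after scaling, Umod and the claudin gene Cldn10 (1.29, lost at up to 0.163 without OE 3). Of 10 intercalated cell markers 6 were higher as deposited and 0 called after scaling in the main limma fit or by voom, with 2 at an unadjusted p under 0.05. After scaling 4 were higher with library weights, and the leave-outs called 0 to 1 higher. As deposited the 6 became 2 without DB 2 or OE 2 and 3 without OE 1 or OE 3.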
